A study of Sus scrofa with 14 samples.

Results

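The solute carriers (gene symbols that start with SLC) and aquaporins (AQP) measured here are the membrane transporters through which cells of the pregnant uterus move amino acids, ions, metals, vitamins, nucleotides and water. Every gene whose single symbol in the array annotation starts with SLC and a digit, with SLCO or with AQP was taken, without the glucose and fructose carriers SLC2A1, SLC2A3, SLC2A5 and SLC5A1. This gave 124 genes of the 6765 with a symbol, on 186 probe sets, and each gene stood by its brightest probe set. The symbol rule also took SLC9A3R1 and SLC9A3R2, which are scaffold proteins, and SLC2A4RG, a regulator of transcription. It kept other sugar carriers as well, among them SLC2A2, SLC2A4, SLC2A8, SLC2A12, SLC5A4 and SLC5A10.

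The animals were 14 F2 sows of an Iberian x Meishan cross, in which a Spanish and a Chinese pig breed were crossed and their offspring intermated. All were slaughtered during the fifth of their pregnancies, between its days 30 and 32, and the uterus was frozen. The submitters classed 5 sows as high prolificacy and 9 as low prolificacy, and no treatment or allele is named for either group. Each sow gave 1 Affymetrix porcine array, and the question was which transcripts differ in level between prolific and less prolific sows. The labels do not say which layer of the uterine wall, or which place relative to a conceptus, was sampled.

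Solute carriers are grouped into families by sequence. Secondary transporters among them couple the uphill movement of a substrate to a sodium or proton gradient, exchangers swap one solute for another, and the SLC25 family spans mainly the inner mitochondrial membrane. The pig conceptus does not invade the uterine wall, so what it takes up in early pregnancy crosses the uterine epithelium, where carriers on the apical and basolateral membranes pass nutrients into the lumen. Aquaporins let water, and some of them glycerol, follow.

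Of the 124 genes, 11 rose and 5 fell in high prolificacy. SLC9A4, a sodium-proton exchanger, rose 7.79-fold, SLC7A4, a member of the cationic amino acid transporter family, rose 4.95-fold, and SLC15A1, the proton-coupled transporter of small peptides, rose 3.26-fold. SLC25A4, the ADP/ATP carrier of heart and muscle mitochondria, fell 4.18-fold, and SLC22A3, a transporter of organic cations and monoamines, fell 2.95-fold. In bulk tissue, fewer cells of a type and less RNA per cell cannot be told apart. Values are log2 levels, differences are high minus low on that scale, and a gene was called at a limma adjusted p under 0.05 over all 23999 probe sets.

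The 16 called genes were 12.9% of the group, beside 10.8% (728 of 6765) of all genes with a symbol and 7.85% (1885) of all probe sets. The share called higher was 8.87%, beside 5.34% of all genes with a symbol, and the share called lower was 4.03%, beside 5.42%. The median difference of the 124 genes was 0.19, and 89 of them (71.8%) had a difference above 0. Over all genes with a symbol the median was 0.07 and 60.1% lay above 0. The groups of arrays did not overlap in 4 of the 124 genes (3.23%), beside 3.78% of all genes with a symbol. Counts this near the background are no result about the carriers as a group. Of the 124 genes, 44 had a mean under 5.85, the median of all probe set means, and without detection calls it is not known whether such genes lay above background.

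**Figure D1:**
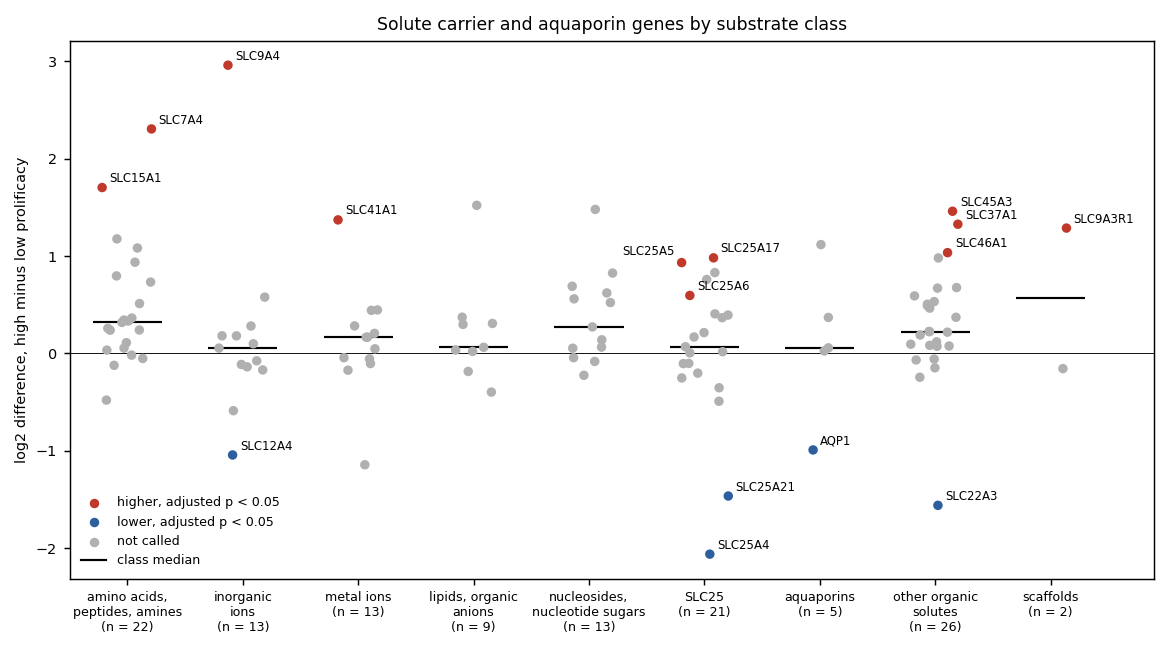
Each point is 1 gene, the vertical axis is the log2 difference between high and low prolificacy, and columns are substrate classes with a black line at the class median. Red points (11) were called higher and blue points (5) lower by limma, and the lipid and nucleoside classes hold no called gene. Of all genes with a symbol 10.8% were called.

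Transcript levels of smooth muscle and epithelial markers differed between the groups. Of 15 smooth muscle markers on the array 15 fell, and their mean level, centred on all arrays, lay between -3.51 and -0.05 in high and between 0.78 and 1.95 in low prolificacy. Of 15 epithelial markers 8 rose and 0 fell, with list means between 0.69 and 1.65 in high and between -2.52 and 0.28 in low prolificacy. Of 9 markers of blood endothelium 1 rose and 1 fell, and of 6 markers of trophoblast and fetal membranes, 5 of leukocytes and 3 of red blood cells 0 were called. With the smooth muscle and epithelium means as covariates limma called 0 of the 124 genes, with 4 at an unadjusted p under 0.05. In that fit 0 of all 23999 probe sets were called, beside 1885 without covariates. The loss of calls was therefore not particular to the carriers. These 2 means accounted for 83.6% of the variance of the group label, which makes the group difference in that fit imprecise. With them in the fit the differences, none of them called, were 1.94 for SLC15A1, 2.19 for SLC7A4 and 1.86 for SLC45A3, 1.17 for SLC9A4 and 0.57 for SLC46A1, and -1.10 for SLC22A3 and -0.71 for AQP1. A small difference or a turned sign in that fit is no result about a gene. The list mean of trophoblast and fetal membranes was not among the covariates. The part of tissue makeup in the differences below was not tested.

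SLC15A1, known as PEPT1, imports di- and tripeptides together with protons. Its level was 7.57, 7.85, 6.49, 6.75 and 7.64 in high 1 to high 5 and had a lowest value of 4.89, a median of 5.78 and a highest of 6.19 in the 9 low arrays. All 5 high arrays lay above all 9 low arrays, as held for 1.46% of all genes with a symbol. The difference was 1.70 ± 0.27 (SE, limma adjusted p = 0.0023), and it was called in each of the 14 fits that left out 1 array. The other peptide transporter measured, SLC15A2, did not pass, at 6.18 ± 1.60 (SD, n = 5) and 5.85 ± 1.07 (SD, n = 9).

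SLC7A4 stood at 8.27, 7.80, 7.70, 9.55 and 9.03 in high 1 to high 5, and between 5.09 and 7.74 with a median of 5.89 in the low arrays. The ranges touched, because low 4 at 7.74 lay just above high 3 at 7.70. The difference was 2.31 ± 0.44 (SE, limma adjusted p = 0.0058), and no fit without 1 array lost the call. High 4 and low 4, where SLC7A4 was highest in each group, also had the highest list means of trophoblast and fetal membranes. Those means were 3.42 and 0.96, and their part in the SLC7A4 level was not tested.

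Of the 22 carriers of amino acids, peptides and amines, these 2 rose and 0 fell, with a class median of 0.33. They were 9.09% of the class, beside 10.8% called of all genes with a symbol. Among the uncalled members, SLC1A5, the sodium-dependent glutamine carrier, was at 8.61 ± 0.36 (SD, n = 5) and 8.57 ± 0.50 (SD, n = 9), and its 95% interval for the difference ran from -0.48 to 0.55. SLC7A1, the arginine and lysine carrier, was at 8.18 and 8.23, with an interval from -0.62 to 0.52. SLC3A2, the heavy chain that brings several SLC7 carriers to the membrane, was at 7.33 and 7.22, with an interval from -0.55 to 0.77.

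Other members of this class, picked out after their values were seen, varied without a call. SLC1A4, a carrier of serine and alanine, had the largest negative difference, -0.48, with all 5 high arrays between 5.45 and 6.08 and the low arrays between 5.26 and 6.71. It missed the threshold on all arrays (limma adjusted p = 0.17) and passed without low 8 (limma adjusted p = 0.029). SLC1A1, the glutamate and aspartate carrier, was at 8.47 to 8.96 in high 1 to high 4 and 7.52 in high 5, and spread from 5.08 in low 7 to 9.10 in low 5 (difference 1.08, limma adjusted p = 0.26). SLC7A9, the light chain of the cystine and dibasic amino acid transporter, was highest in high 4. Its level was 7.59 there against 4.07 to 4.58 in the other high arrays, and in the low arrays it ran from 3.00 to 5.89 in low 4. Its difference of 1.18 was 0.53 without high 4. SLC38A9, the lysosomal arginine sensor, differed by 0.51 (limma adjusted p = 0.215) and SLC1A6, a glutamate carrier, by 0.32 (limma adjusted p = 0.125).

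Ion carriers set cell volume, pH and the ionic makeup of the uterine fluid. Of 13 measured, SLC9A4 rose and SLC12A4 fell, and the class median was 0.05. These were 15.4% of the class, beside 10.8% called of all genes with a symbol. SLC9A4 exchanges extracellular sodium for intracellular protons, and is known from stomach and kidney epithelium. It reached 6.73, 7.51, 8.46, 5.27 and 7.99 in high 1 to high 5. The low arrays ran from 3.14 to 5.58 with a median of 3.75, so high 4 lay inside their range and the other high arrays above it. The difference was 2.96 ± 0.52 (SE, limma adjusted p = 0.0038), and the lowest values may lie near background, which limits the fold.

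SLC12A4, the potassium-chloride cotransporter KCC1, which lowers cell volume, was at 6.28, 5.12, 5.17, 6.57 and 6.25 in high prolificacy and between 6.32 and 7.91 with a median of 6.91 in low prolificacy. High 4 alone reached into the low range. The difference was -1.04 ± 0.28 (SE, limma adjusted p = 0.034). The call did not hold when high 2 or high 3, or low 1, low 2, low 4 or low 9, was omitted, with limma adjusted p between 0.020 and 0.12 over the 14 fits. With the covariates the SLC12A4 difference turned to 0.12.

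The other sodium-proton exchangers measured, SLC9A3 and SLC9A5, differed by -0.08 and 0.05, with intervals from -0.32 to 0.17 and from -0.17 to 0.28. SLC8A1, the sodium-calcium exchanger of excitable cells, is named because of its value. It was dim in both groups, at 3.55 ± 0.22 (SD, n = 5) and 4.14 ± 0.38 (SD, n = 9), and its difference of -0.59 did not pass on all arrays (limma adjusted p = 0.063) and passed without low 5 (limma adjusted p = 0.034). The bicarbonate carriers SLC4A2 and SLC4A4 differed by 0.18 and -0.17 without a call. The iodide carrier SLC5A5 was at 6.08 in high 4 and between 4.39 and 4.70 in the other high arrays.

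SLC9A3R1, also named NHERF1, is no carrier but a PDZ-domain scaffold that ties sodium-proton exchangers and other membrane proteins to ezrin under the apical membrane. Its level was 9.01, 9.92, 9.81, 9.28 and 10.70 in high 1 to high 5 and ran from 7.79 to 9.20 with a median of 8.30 in the low arrays. High 1 lay below low 3, the highest low array, and the other 4 high arrays lay above all low arrays. The difference was 1.29 ± 0.27 (SE, limma adjusted p = 0.0097), called in all 14 fits without 1 array. With the smooth muscle and epithelium means as covariates the difference was 0.02. Its relative SLC9A3R2, with the same domain plan, did not pass, at 7.35 ± 0.52 (SD, n = 5) and 7.51 ± 0.34 (SD, n = 9). Whether these 2 genes differ in their response was not tested.

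**Figure D2:**
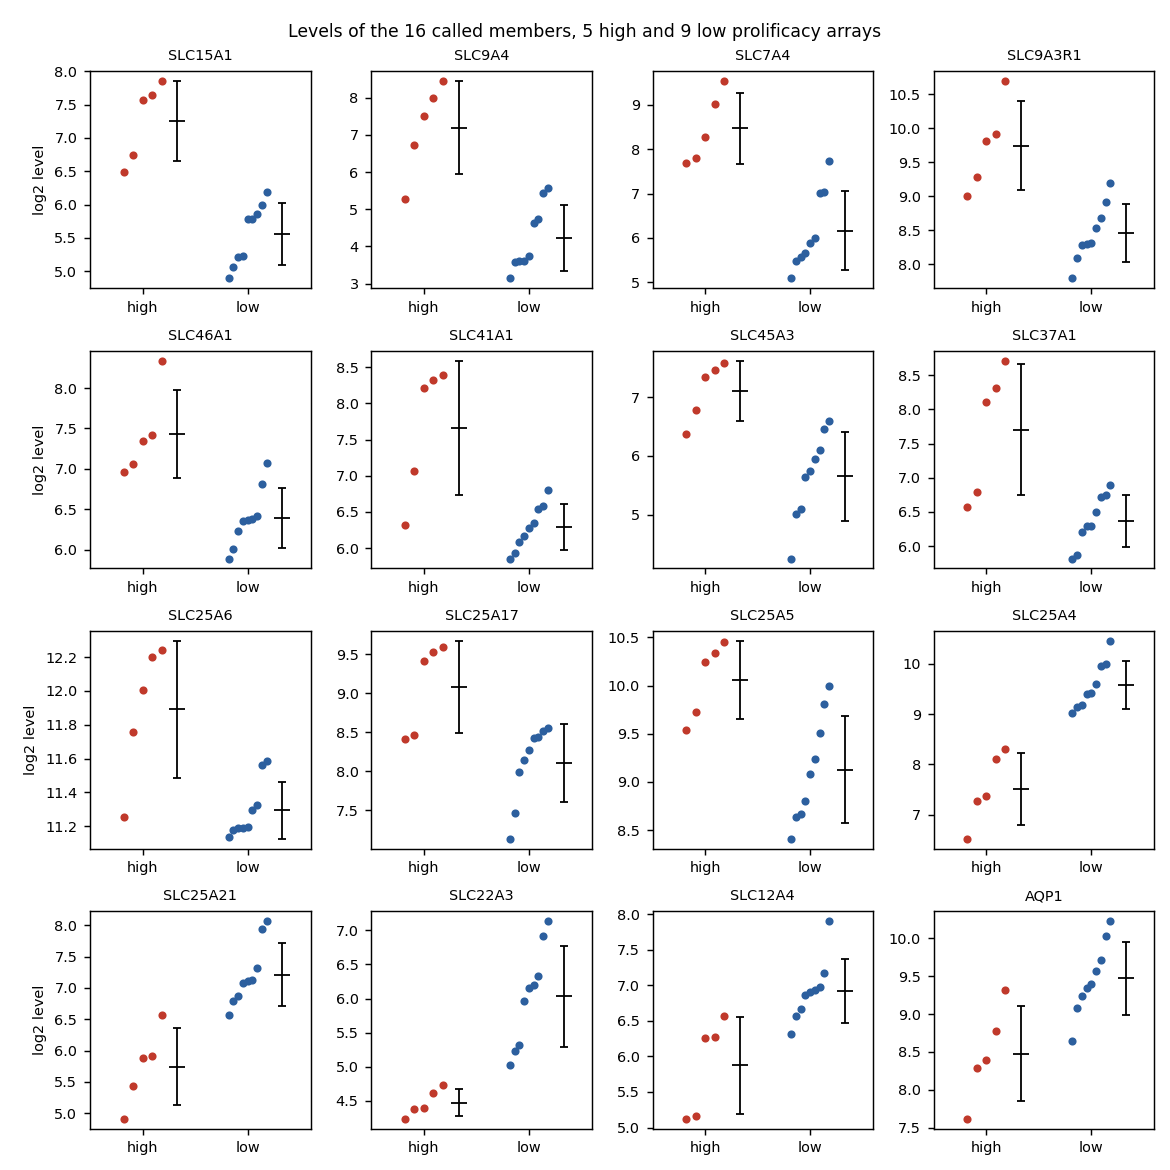
Each panel shows the log2 level of 1 called gene, with a point for each of the 5 high (red) and 9 low (blue) arrays in order of level and black bars for the mean ± SD. SLC15A1 lies apart upwards, and SLC25A4, SLC25A21 and SLC22A3 lie apart downwards, while the other 12 genes overlap.

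The SLC25 family carries nucleotides, phosphate, amino acids and cofactors across the inner mitochondrial membrane. Of 21 members 3 rose and 2 fell, 23.8% called beside 10.8% of all genes with a symbol, with a class median of 0.07. The count fell to 2 without high 2, high 3, low 6 or low 9, and to 3 without high 5 or low 7. In these fits the calls over all probe sets fell too, from 1885 to between 944 and 1483. The ADP/ATP carriers, which export ATP from mitochondria in exchange for ADP, moved in opposite directions. SLC25A4, the form of heart and skeletal muscle, was lower in high prolificacy, and SLC25A5 and SLC25A6, the forms found in dividing cells and more widely, were higher. These genes are close copies of one another, and probes on one may take up transcript of another.

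SLC25A4 was at 8.31, 7.36, 6.52, 7.26 and 8.11 in high 1 to high 5 and between 9.03 and 10.46 with a median of 9.41 in the low arrays. All 5 high arrays lay below all 9 low arrays, as held for 2.32% of all genes with a symbol. The difference was -2.06 ± 0.30 (SE, limma adjusted p = 0.0013), called in all 14 fits without 1 array, and it was -0.20 with the smooth muscle and epithelium covariates. The array with the highest SLC25A4 level, low 7, was also the one with the highest smooth muscle mean, at 1.95.

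SLC25A6 stood at 11.25 in high 1, between 11.76 and 12.24 in the other 4 high arrays, and between 11.14 and 11.58 with a median of 11.20 in the low arrays. High 1 lay within the low range and the rest above it, and the difference was 0.60 ± 0.15 (SE, limma adjusted p = 0.028). SLC25A5 was at 9.73, 10.46, 10.34, 10.24 and 9.54, against 8.41 to 9.99 with a median of 9.08. High 1 and high 5 overlapped with the low arrays, and the difference was 0.93 ± 0.27 (SE, limma adjusted p = 0.045). The SLC25A6 call did not hold when high 2, high 3 or high 5, or low 6 or low 9, was omitted (limma adjusted p between 0.0019 and 0.10). For SLC25A5 it did not hold when high 2, high 3 or high 4, or any low array other than low 2, low 4 and low 5, was omitted (between 0.019 and 0.13). With the covariates both signs turned, to -0.30 for SLC25A6 and -0.012 for SLC25A5.

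SLC25A21 carries oxoadipate, an intermediate of lysine and tryptophan breakdown, in exchange for oxoglutarate. It was at 6.56, 5.89, 5.44, 5.92 and 4.91 in high 1 to high 5 and between 6.57 and 8.07 with a median of 7.10 in the low arrays. The groups did not overlap, though high 1 at 6.56 came close to low 3 at 6.57. The difference was -1.47 ± 0.28 (SE, limma adjusted p = 0.0061), called in all 14 fits without 1 array. With the covariates it turned to 0.10 for SLC25A21.

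SLC25A17 belongs to the family by sequence but sits in the peroxisome, where it carries coenzyme A and other cofactors. Its levels of 9.53, 9.41 and 9.60 in high 2, high 3 and high 5 lay above the low range of 7.13 to 8.55. High 1 at 8.47 and high 4 at 8.41 lay inside that range. The difference was 0.98 ± 0.28 (SE, limma adjusted p = 0.043), and the call did not hold when high 2, high 3 or high 5, or any low array other than low 1, low 3, low 5 and low 8, was omitted (limma adjusted p between 0.022 and 0.13). The SLC25A17 difference turned to -0.34 with the covariates.

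The other 16 members of the family had no call, and the 4 named next were picked out after their values were seen. SLC25A39, a glutathione carrier, differed by 0.83 (limma adjusted p = 0.070) and was highest in high 4, at 9.20. It passed without high 1 (limma adjusted p = 0.046). SLC25A12, the aspartate-glutamate carrier of muscle and brain, differed by -0.49 (limma adjusted p = 0.079). The phosphate carrier SLC25A3 had a narrow spread, at 11.43 ± 0.19 (SD, n = 5) and 11.22 ± 0.08 (SD, n = 9), and its difference of 0.21 did not pass. SLC25A33, a pyrimidine nucleotide carrier, was at 8.53 to 9.20 in high prolificacy and at 6.99 in low 7 and 7.17 in low 9.

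Aquaporins were on the array with 5 genes, of which 1 fell and 0 rose, beside 10.8% called of all genes with a symbol. AQP1 is the water channel of capillary endothelium and red blood cells. Its level was 8.78, 7.62, 8.40, 9.32 and 8.29 in high 1 to high 5 and ran from 8.64 to 10.23 with a median of 9.40 in the low arrays. High 1 and high 4 overlapped with the low arrays and the other 3 high arrays lay below them. The difference was -0.99 ± 0.28 (SE, limma adjusted p = 0.043), a fall of 1.99-fold. The call held in 4 of the 14 fits that omitted 1 array, those without high 1, high 4, low 3 or low 8 (limma adjusted p between 0.017 and 0.13 over all of them), and failed with the mean of both AQP1 probe sets (-0.61, limma adjusted p = 0.093). The dimmer probe set by itself differed by -0.22.

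Endothelial markers were compared because AQP1 is abundant in vessels. PECAM1, an adhesion protein of endothelial junctions, fell by 1.07 on the log2 scale, and KDR, the main receptor for vascular endothelial growth factor, rose by 1.71, while the other 7 were not called. The endothelial list mean lay between -0.94 and 0.36 in high and between -0.42 and 0.71 in low prolificacy, with the lowest value in high 2, the array in which AQP1 was also lowest. The red blood cell list held HBB, ALAS2 and AHSP, its mean lay between -1.27 and 0.77 in high and between -0.91 and 1.69 in low prolificacy, and none of the 3 was called (limma adjusted p between 0.16 and 0.96). Their part in the AQP1 difference was not tested.

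AQP8 varied more between sows than between the groups. It was at 10.09 in high 1 and 11.07 in high 4, and at 4.89, 5.19 and 6.03 in high 2, high 3 and high 5. In low 1, low 2, low 4 and low 5 it was at 11.01, 9.00, 9.50 and 11.33, and in the other 5 low arrays between 4.55 and 5.80. No array lay between 6.03 and 9.00, and each prolificacy group held both levels. The group difference was 0.06 with a 95% interval from -3.00 to 3.12 (limma adjusted p = 0.99), so a change of several fold in either direction was not detectable here.

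SLC11A2, the importer of ferrous iron and other divalent metals, was also high in some sows of each group, as picked out after its values were seen. It reached 8.04 in high 4 and 8.93, 9.17, 8.59, 9.24 and 7.97 in low 1, low 2, low 4, low 5 and low 6. The other high arrays lay between 6.08 and 6.63 and the other low arrays between 6.15 and 7.06. Its difference of -1.14 did not pass (limma adjusted p = 0.27). PAG6, a pregnancy-associated glycoprotein of trophoblast, was at 10.74 in high 1, 11.43 in high 4, 10.89 in low 4, 8.74 in low 5, 8.03 in low 6, 7.18 in low 1 and 4.87 in low 2. In the remaining arrays it lay between 3.60 and 6.21. The list mean of trophoblast and fetal membranes ran from -1.02 to 3.42 in high and from -1.20 to 0.96 in low prolificacy. The part of that mean in the AQP8, SLC11A2, SLC7A4 and SLC7A9 levels was not tested.

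The other 3 aquaporins had no call. AQP3, which passes glycerol as well as water, ranged from 7.08 in high 2 to 10.63 in high 1 and from 5.03 in low 7 to 10.06 in low 3, and its difference of 1.12 had an interval from -0.38 to 2.61. AQP11, a channel of inner cell membranes, differed by 0.37, with an interval from -0.52 to 1.26. AQP5 was dim in every array, between 3.70 and 4.55, and differed by 0.03.

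**Figure D3:**
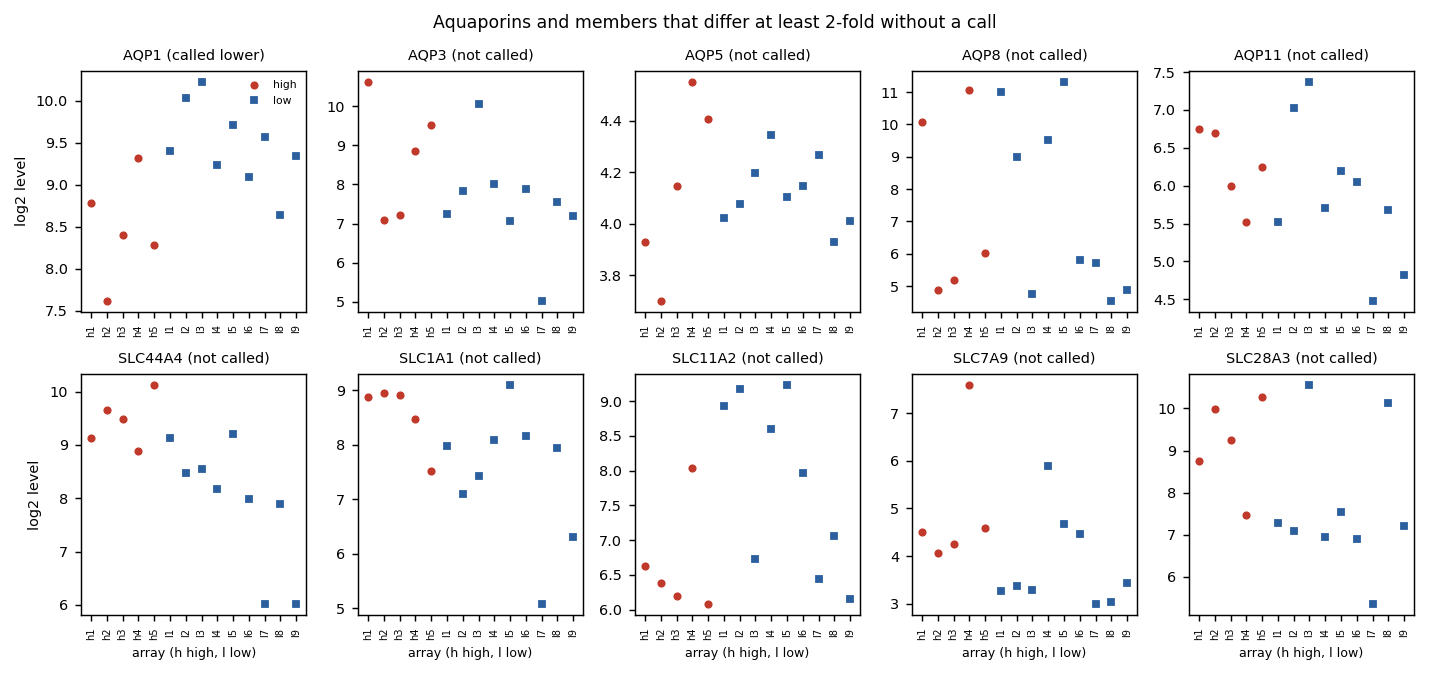
The log2 level in each of the 5 high (red circles) and 9 low (blue squares) arrays is shown for the 5 aquaporins and for the 5 other uncalled genes with a difference of at least 2-fold. AQP8 takes levels of 9.00 or more in 2 high and 4 low arrays and at most 6.03 in the rest, and SLC44A4 is lowest in low 7 and low 9, at 6.02 in both.

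Metal carriers were measured with 13 genes, of which 1 rose (7.69%, beside 10.8% called of all genes with a symbol). SLC41A1 moves magnesium across the plasma membrane. It was at 8.39, 8.33 and 8.21 in high 2, high 3 and high 5, at 7.07 in high 4 and at 6.31 in high 1. The low arrays ran from 5.86 to 6.81, so high 1 lay inside their range. The difference was 1.37 ± 0.31 (SE, limma adjusted p = 0.014), and it was lost without high 2 or high 3 (limma adjusted p at most 0.054). With the smooth muscle and epithelium covariates its sign turned, to -0.62. Of the 3 dimmer SLC41A1 probe sets, 2 were called as well, with differences of 0.75 and 1.59, and the remaining one differed by 0.51.

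Zinc carriers showed no call. SLC39A2, a zinc importer, spread from 8.44 to 10.32 in high and from 6.69 to 11.51 in low prolificacy, and its difference of 0.45 had an interval from -0.95 to 1.84. SLC30A3, a zinc exporter of vesicles, picked out after its value was seen, differed by 0.44 (limma adjusted p = 0.14). The copper importer SLC31A1 was at 9.02 and 8.74, with an interval for the difference from -0.50 to 1.06.

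Among the 26 carriers of other organic solutes 3 rose and 1 fell, with a class median of 0.22. These were 15.4% of the class, beside 10.8% called of all genes with a symbol. SLC22A3, also called OCT3, clears histamine, serotonin and noradrenaline from the extracellular space. It stood within a narrow span in high prolificacy, at 4.38, 4.62, 4.23, 4.39 and 4.73, and ran from 5.02 to 7.14 with a median of 6.16 in low prolificacy. All 5 high arrays lay below all 9 low arrays. The difference was -1.56 ± 0.32 (SE, limma adjusted p = 0.0083), called in all 14 fits without 1 array. The high arrays lay under the lowest array median of 5.72, so the fold may be bounded by background.

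SLC46A1 takes up folate at acid pH. It was at 6.96, 7.42, 7.06, 7.35 and 8.34 in high prolificacy, and between 5.89 and 7.08 with a median of 6.36 in low prolificacy, where low 3 overlapped with high 1 and high 3. The difference was 1.04 ± 0.23 (SE, limma adjusted p = 0.013), called in all 14 fits without 1 array. The dimmer of its probe sets did not pass, at 0.46.

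SLC45A3, a sugar carrier best known from prostate epithelium, was at 7.59, 7.46, 6.37, 7.35 and 6.79 in high prolificacy and between 4.25 and 6.59 in low prolificacy. High 3 overlapped with the top of the low range. The difference was 1.46 ± 0.35 (SE, limma adjusted p = 0.020), lost without high 2 (limma adjusted p = 0.066), and both its dimmer probe sets were called too, at 0.71 and 0.64. SLC37A1 exchanges glucose 6-phosphate for phosphate in the endoplasmic reticulum. It was at 8.10, 8.32 and 8.71 in high 2, high 3 and high 5, and at 6.79 in high 1 and 6.57 in high 4, inside the low range of 5.82 to 6.89. The difference was 1.33 ± 0.33 (SE, limma adjusted p = 0.023), lost without high 2, high 3 or high 5 (limma adjusted p at most 0.082). With the covariates the SLC37A1 difference turned to -0.39.

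Vitamin carriers other than SLC46A1 were not called. SLC5A6, which takes up biotin and pantothenate, was at 9.14 to 9.86 in high prolificacy, while the low arrays spread from 6.90 in low 9 and 7.08 in low 7 to 10.01 in low 1. The riboflavin carrier SLC52A2 differed by 0.53 (limma adjusted p = 0.090) and the ascorbate carrier SLC23A2 by 0.59 (limma adjusted p = 0.15). The sugar carrier SLC2A8 differed by 0.49 (limma adjusted p = 0.078). These 3 were picked out after their values were seen. SLC2A8 passed without high 1 (limma adjusted p = 0.018) and SLC52A2 without low 3 (limma adjusted p = 0.049). SLC2A4RG differed by -0.07.

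Carriers of lipids, bile acids and organic anions were 9 genes, with 0 called, 2 at an unadjusted p under 0.05 and a class median of 0.06. Of all genes with a symbol 10.8% were called, so 0 calls in 9 genes are no result about the class. SLC44A4, a choline transporter-like protein of epithelia, had the smallest p. It was at 9.13, 9.66, 9.48, 8.89 and 10.13 in high prolificacy and between 6.02 and 9.20 with a median of 8.17 in low prolificacy. The lowest values were 6.02 in both low 7 and low 9, the arrays with the lowest epithelium means (-2.52 and -2.29). The difference was 1.52 ± 0.51 (SE, limma adjusted p = 0.086), and it was 0.97 with low 7 and low 9 left out together. The choline carrier SLC44A2 differed by 0.37, and the organic anion carriers SLCO2B1 and SLCO3A1 differed by 0.06 and -0.40. The fatty acid carriers SLC27A1 and SLC27A6 differed by 0.02 and 0.30, without a call.

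Of 13 carriers of nucleosides and nucleotide sugars 0 were called, with 2 at an unadjusted p under 0.05 and a class median of 0.27. Beside 10.8% called of all genes with a symbol, 0 calls in 13 genes are no result about the class. SLC35B1, which exchanges ATP and ADP across the membrane of the endoplasmic reticulum, was at 8.64, 8.82, 8.59, 8.68 and 9.12 in high prolificacy and between 7.40 and 8.68 in low prolificacy. High 1 and high 3 overlapped with the low arrays. The difference was 0.69 ± 0.21 (SE, limma adjusted p = 0.058), and it passed without low 2 or low 5 (limma adjusted p between 0.031 and 0.14 over the 14 fits) and when only the 12000 brightest probe sets were tested (limma adjusted p = 0.046) or a gene's probe sets were averaged (limma adjusted p = 0.044). SLC28A3, a sodium-coupled nucleoside importer also named because of its value, was at 7.48 in high 4 and 8.76 to 10.28 in the other high arrays. It was at 10.56 and 10.14 in low 3 and low 8 and between 5.36 and 7.54 in the other low arrays, and the difference of 1.48 did not pass (limma adjusted p = 0.29). SLC29A1, the equilibrative nucleoside transporter, differed by 0.62, with an interval from -0.77 to 2.01. SLC35F5 differed by -0.22, and by 0.28 without high 5, where its level was 6.45 against 8.75 to 9.40 in the other high arrays.

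**Figure D4:**
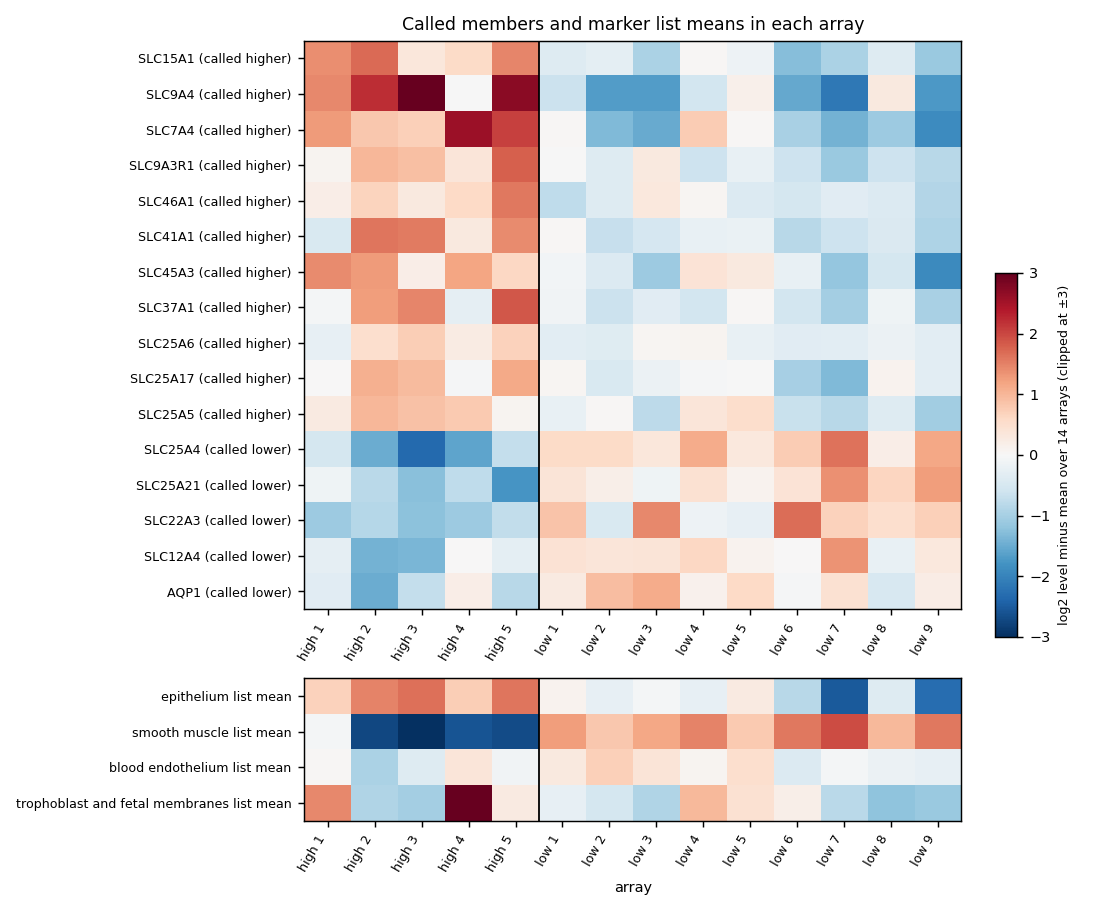
Rows are the 16 called genes above and 4 marker list means below, columns are the 14 arrays, and colour is the log2 level minus its mean over all arrays. High 1 has a smooth muscle mean of -0.05, between the other high arrays (at most -2.60) and the low arrays (at least 0.78).

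Carriers work with pumps, channels and kinases, and 21 such partner genes were on the array, from a list written for this purpose with earlier results known. Of these 6 rose and 1 fell, beside 10.8% called (5.34% higher and 5.42% lower) of all genes with a symbol. FXYD3, a small regulator of the sodium pump, was at 8.59, 10.76, 10.60, 9.36 and 11.03 in high and between 4.57 and 8.14 in low prolificacy (difference 3.22 ± 0.61 SE, limma adjusted p = 0.0053), with no overlap. ATP1B1, the beta subunit of the sodium pump, was at 8.90 in high 4 and up to 12.06 in high 3, against 7.67 to 10.30 (2.29 ± 0.51 SE, limma adjusted p = 0.013). High 1 and high 4 overlapped with low 8, and the call was lost without high 3 (limma adjusted p = 0.051).

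The epithelial sodium channel subunits SCNN1A and SCNN1B rose by 0.92 and 2.00, and the kinases SGK1 and SGK2, which keep sodium channels and exchangers at the membrane, rose by 1.84 and 1.05. SCNN1A and SGK2 were dim, at 3.88 and 3.24 in low prolificacy. The SGK1 call was lost without high 2 or high 3 (limma adjusted p at most 0.063). Of the proteins that link SLC9A3R1 to actin, MSN fell by 1.54, with all high arrays between 8.15 and 9.66 and all low arrays between 10.15 and 10.98. EZR, the ezrin of epithelial microvilli, differed by 0.48 (limma adjusted p = 0.094) and was not called, though it passed in 2 of the 14 fits without 1 array (smallest limma adjusted p 0.032). With the list means of smooth muscle and epithelium as covariates 0 partner genes and 0 of all 23999 probe sets were called. The SCNN1B difference turned to -0.27 in that fit.

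Single arrays moved the counts. Between 5 and 13 carrier genes were called higher and between 3 and 6 lower over the 14 fits without 1 array. The higher count was 5 without high 2 and 6 without high 3, and the lower count was 3 without high 2, high 3, low 1, low 2, low 4 or low 9. Calls over all 23999 probe sets moved too, from 1885 on all arrays to 1002 without high 2 and 944 without high 3. Without high 1 they were 2650. The changes were therefore not particular to the carriers. With low 7 and low 9 left out together, an alternative added after the data were seen, 6 genes were called higher and 3 lower. That fit called 1065 of all probe sets. SLC15A1, SLC7A4, SLC9A4, SLC9A3R1, SLC46A1, SLC25A4, SLC25A21 and SLC22A3 were called in each of the 14 fits.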

How the data were processed

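The deposited values are log2 levels per probe set, which the authors made by RMA according to notes on processing (per the submitters' processing notes). The version of RMA is not given in the sources used here, nor are its settings. RMA equalises intensity distributions between arrays, so a shift shared by most transcripts would be removed, and the array medians lay between 5.72 and 5.84. Of 24123 probe sets 124 controls were left out. Symbols are those of the platform annotation and may be out of date. Looked up by gene number, 123 of the 124 members had the same symbol in RefSeq genes of Sscrofa11.1.

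High minus low prolificacy was fitted with limma 3.58.1 in R 4.3.3 (lmFit, eBayes, two-sided, no covariate, no filter) on all probe sets, with Benjamini-Hochberg adjustment over 23999. SE is limma's moderated standard error, SD is between arrays, and intervals are 95%. The code was tested on simulated data. The number of arrays limits the precision. A list mean averages log2 levels centred per gene. Classes follow SLC families.

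Named genes were SLC9A3R1, AQP1, up to 5 called genes per class and direction, the brightest gene of each class and the gene with the smallest p in classes without a call. Another 23 were added after their values were seen: all aquaporins and uncalled genes with an unadjusted p under 0.05 or a 2-fold difference. A few other uncalled carriers are named as members of their class. The members and lists were chosen with earlier results of these data known. Alternatives were the 12000 brightest probe sets, cyclic loess, array weights, both list means as covariates, a block for the replicate number, trended and robust eBayes, the mean over a gene's probe sets, leaving out each array, and, added later, leaving out low 7 and low 9.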

Additional observations from a re-analysis of the deposited data

Results flagged for a closer look

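In 110 groups of arrays checked (each named gene in the high and in the low arrays), 11 held an array whose gap to its nearest neighbour took more of the group's range than Dixon's 95% critical value, which chance passes in about 1 of 20 groups. In SLC7A9, high 4 at 7.59 lay above the next high array at 4.58 (gap 0.854 of the range), and in SLC5A5 high 4 at 6.08 lay above 4.70 (0.816). In SLC11A2, high 4 at 8.04 lay above 6.63 (0.721). High 4 also had the highest list mean of trophoblast and fetal membranes, at 3.42, and the part of that in these levels was not tested.

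In SLC38A9, high 5 at 8.87 lay above 7.61 (0.729). High 5 lay below the other high arrays in SLC35F5, at 6.45 against 8.75 (0.78), and in SLC25A12, at 6.99 against 7.55 (0.771). In SLC23A2, high 3 at 5.49 lay above 4.15 (0.849). Among the low arrays, low 3 lay below the rest in SLC35F5, at 7.17 against 8.33 (0.563), and above them in SLC44A2, at 8.26 against 7.76 (0.56). Low 8 lay below the rest in SLC9A5, at 6.25 against 6.63 (0.569), and above them in the partner gene ATP1B1, at 10.30 against 8.78 (0.579).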

How the results depend on the processing

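With the smooth muscle and epithelium means as covariates 0 genes were called higher, 0 lower and 0 in any class or among the partner genes. Of all 23999 probe sets 0 were called in that fit as well. With the replicate number as a block (replicate block) 1 was called higher, 0 lower and 1 in the amino acid class. In every other class and among the partner genes 0 were called. The sows differ between groups, so the numbers do not pair them. The numbers of low 6 to low 9 have no high array, so the block fitted these arrays exactly. The difference in that fit rested on the 5 high arrays and the other 5 low arrays. Counts with and without the block thus rest on unlike sets of arrays. Of all 23999 probe sets 35 were called with the block, beside 1885 without it. Leaving out low 7 and low 9 together, added after the data were seen, gave 6 higher and 3 lower, with 1 ion, 0 metal, 0 water and 2 mitochondrial carriers. The 12000 brightest probe sets gave 1 ion and 1 nucleoside carrier, array weights 1 nucleoside carrier, and probe set means 1 nucleoside and 0 water carriers. Members called in all were 15, 17, 19, 16 and 17 with the 12000 brightest, cyclic loess, array weights, trend and robust settings, and probe set means. Without 1 array, 5 to 13 were called higher and 3 to 6 lower, with 2 to 3 amino acid, 1 to 3 ion, 0 to 1 metal, 0 to 1 lipid, 0 to 1 nucleoside, 2 to 6 mitochondrial, 0 to 1 water and 2 to 5 other carriers and 5 to 9 partner genes. Of all 23999 probe sets these fits called 944 to 2650. The covariates reversed the sign of AQP5 (-0.12), SLC12A4 (0.12), SLC1A5 (-0.033), SLC23A2 (-0.52), SLC25A12 (0.017), SLC25A17 (-0.34), SLC25A21 (0.10), SLC25A3 (-0.042), SLC25A33 (-0.56), SLC25A5 (-0.012), SLC25A6 (-0.30), SLC28A3 (-0.33), SLC2A8 (-0.21), SLC35A4 (-0.21), SLC35F5 (0.42), SLC37A1 (-0.39), SLC39A2 (-0.34), SLC41A1 (-0.62), SLC44A2 (-0.085), SLC44A4 (-0.11), SLC9A5 (-0.091) and SCNN1B (-0.27). The block reversed AQP11 (-0.12), AQP5 (-0.0016), AQP8 (-1.67), SLC1A5 (-0.28) and SLC9A5 (-0.031). Array weights reversed AQP5 (-0.11), AQP8 (-1.60) and SLC1A5 (-0.24), cyclic loess AQP5 (-0.0055), probe set means SLC25A3 (-0.020), and leaving out low 7 and low 9 AQP8 (-0.54), SLC1A5 (-0.067) and SLC39A2 (-0.084). Without 1 array the differences ran from -0.076 to 0.14 in AQP5, -0.85 to 0.70 in AQP8, -0.090 to 0.14 in SLC1A5 and -0.45 to 0.28 in SLC35F5. With the block, the difference is the high mean minus the mean of low 1 to low 5. The reversals in that fit are thus those of leaving out low 6 to low 9. The cause of the other changes was not tested. Signal near background limits the folds of dim probe sets.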

Other observations

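In 9 of the 11 carrier genes called higher, the lowest of the 9 low arrays was low 7 or low 9, the arrays with the lowest epithelium means. The same held for 37.1% of all 124 carriers and for 27.5% of all genes with a symbol. In 3 of the 5 carriers called lower, low 7 or low 9 was the highest low array, as held for 13.7% of all 124 carriers and 18.2% of all genes with a symbol. The called genes were chosen on these same arrays, and an extreme low array bears on the call. Their counts are therefore not comparable with the shares of unselected genes, and no conclusion is drawn from them. Whether the epithelium and smooth muscle means of the arrays go with these levels was not tested.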
